A study of Mus musculus with 9 samples.

Results

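Spi-B, encoded by Spib, is a transcription factor of the Ets family, proteins that share a DNA-binding domain and bind purine-rich sequences around a GGAA core. Transcription of 7 Ets genes was described: Spib, its closest relatives Spi1 and Spic, the epithelial factors Ehf and Elf3, and Ets1 and Ets2. The genes were taken by symbol from a table of 24505 genes, all 7 were found there, and 5 of them (Spib, Ehf, Elf3, Ets1 and Ets2) passed the filter on low values that left 16563 genes for testing. The same symbols were looked up as the nearest gene of every region in the 2 tables of differing H3K27me3 and named 13 of them: 8 had more of the mark in RANKL and 5 had more in WENRC.

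The libraries came from mouse duodenal organoids, or mini-guts. For transcription, GRO-seq was used, in which nuclei are isolated and polymerases already on the DNA extend labelled RNA, in 3 cultures of 2 libraries: RANKL, labelled intestinal M cell; ENRI, labelled enterocyte; and WENRC, labelled intestinal stem cell. The repressive histone mark H3K27me3, made by the PRC2 complex, was mapped in 1 WENRC library and in a pool that the authors made of 2 RANKL libraries. What the culture names stand for is not in the labels, which give no genotype, strain, age or treatment beyond them. The ENRI and WENRC libraries of one number carry the same mouse number, while the RANKL libraries carry a replicate number only, and nothing says that these came from separate animals, so that p-values measure the spread between these libraries.

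M cells are the epithelial cells that carry antigens from the gut lumen to the lymphoid tissue beneath. They form when epithelial cells are exposed to RANKL, which signals through its receptor RANK to NF-kB factors, and their maturation requires Spi-B. Outside the epithelium Spi-B acts in B cells and plasmacytoid dendritic cells, PU.1 (Spi1) directs myeloid and B cell development, and Spi-C (Spic) acts in macrophages that recycle red cell iron. Ehf and Elf3 are Ets factors of epithelia, Ets1 is best known from lymphocytes and endothelium, and Ets2 is a nuclear target of Ras and MAP kinase signalling.

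Levels below are the deposited GRO-seq values, normalized by the authors and on a log2 scale. The exact transform is not given in the sources used here. Judged from the values themselves, it compresses low genes and understates their changes. Library depth is unknown. By the file header, the RANKL libraries are combined reads of a repeat sequencing, and culture and sequencing run cannot be told apart for them. Replicates were least alike in ENRI, where differences between the pair had an SD of 0.699 over the 16563 tested genes, and most alike in RANKL (0.220), with 0.421 for WENRC. Markers mostly followed the labels, in lists written with earlier results of these data known. Beside the counts below, limma called 10.4% of all tested genes higher and 10.5% lower in RANKL than in ENRI. Against WENRC the shares for RANKL were 8.53% and 3.62%, and for WENRC against ENRI they were 4.85% and 9.74%. Of 12 M cell genes, 9 were higher and 0 lower in RANKL than in ENRI (median log2 change 3.07), and 7 higher and 0 lower than in WENRC (median 2.73), against medians of -0.01 over all tested genes in both comparisons. Without RANKL 1 or RANKL 2, limma called fewer of the M cell genes in both comparisons. The share of all tested genes called in those fits is not given, so the drop cannot be read as particular to the M cell genes. Of 7 enterocyte genes, 6 were lower in WENRC than in ENRI, and all 6 stem cell genes were higher in WENRC than in ENRI. In RANKL the enterocyte genes were split. Fabp1, Fabp2 and Lct, 3 of the 7, were lower than in ENRI (median -1.05 over the 7). Their changes against WENRC were 0.27, -0.45 and -0.60, which limma did not call. The 4 others were not called against ENRI. They were higher than in WENRC, where 0 were lower (median 2.26 over the 7). Among them were the apolipoprotein genes Apoa1 (4.57) and Apoa4 (3.97). The part of this enterocyte difference in the RANKL against WENRC values of Spib and Elf3 was not tested. Of the stem cell genes, 4 were also higher in RANKL than in ENRI, and 1 was higher and 1 lower than in WENRC. Of 8 epithelial genes, 4 were lower in RANKL than in ENRI and 1 lower than in WENRC. H3K27me3 depth, from the deposited normalized tags, was 32.7 M tags in pooled RANKL and 36.3 M in WENRC.

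Spib was high in both RANKL libraries and low in all 4 others. Its gene lies on mm9 chromosome 7 (NM_019866, 51781365 to 51787441, minus strand). It had levels of 9.62 and 9.79 in the RANKL libraries, 5.12 and 5.38 in ENRI, and 5.87 and 5.50 in WENRC. No library of RANKL overlapped any of ENRI or WENRC, and the lowest RANKL value lay above the highest other value by more than Spib differed between any replicates. Spib rose in RANKL by 4.45 over ENRI (SE 0.21, limma adjusted p 0.000963) and by 4.02 over WENRC (SE 0.21, limma adjusted p 0.00136), 21.9-fold and 16.2-fold on the scale of the deposited values. In the authors' deposited table, the log2 fold changes of Spib were 5.54 and 4.84. WENRC and ENRI differed by 0.44 (SE 0.21, limma adjusted p 0.218), and the difference was 0.75 in mouse 1 and 0.12 in mouse 2. Without RANKL 1 or RANKL 2, the change over WENRC was 4.11 and 3.93 with limma adjusted p of 0.0516 and 0.0541, and the lone RANKL library is then assumed to vary like the other groups.

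**Figure D1:**
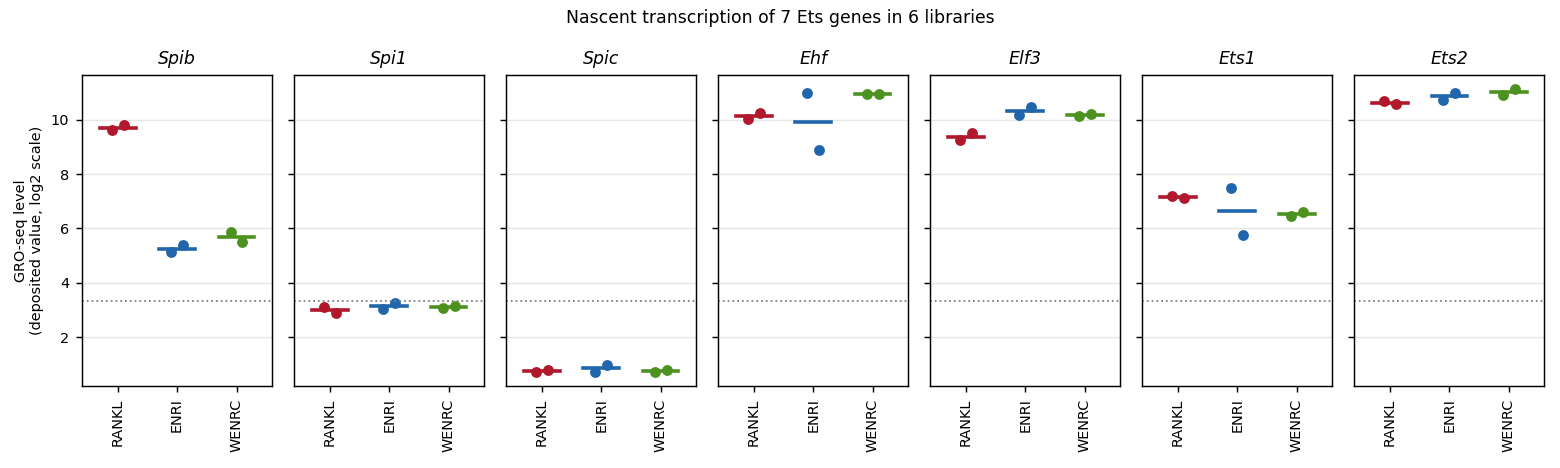
GRO-seq level (deposited value, log2 scale) of the 7 Ets genes in each library. Points are single libraries, with replicate 1 left of replicate 2, bars are means of 2 libraries, and the dotted line is the low-value filter of log2 of 10; Spib stands at 9.62 and 9.79 in RANKL and at most 5.87 elsewhere, Spi1 and Spic lie below the line, and the ENRI points of Ehf and Ets1 lie far apart.

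The comparisons between cultures ask how transcription differs in cells labelled M cell, enterocyte and stem cell. Of the 5 tested Ets genes, 2 were called in RANKL against ENRI, Spib higher and Elf3 lower, where 20.9% of all tested genes were called (10.4% higher and 10.5% lower). The same 2 were called in RANKL against WENRC, where 12.1% of all tested genes were called (8.53% higher and 3.62% lower). These comparisons share the RANKL libraries. In WENRC against ENRI, limma called 0 of the 5, with 0 at an unadjusted p under 0.05 and 0 in the authors' deposited table, where 14.6% of tested genes were called by limma (4.85% higher and 9.74% lower) and 12.5% by the authors. In the authors' deposited table, 2 of the 5 had an adjusted p under 0.05 in RANKL against ENRI (19.6% of tested genes) and 4 in RANKL against WENRC (27.8% of tested genes).

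Elf3, an epithelial Ets factor needed for the differentiation of the intestinal lining, went the other way. Its gene lies on mm9 chromosome 1 (NM_007921, 137150151 to 137155049, minus strand). Levels were 9.24 and 9.53 in RANKL, 10.19 and 10.47 in ENRI, and 10.14 and 10.20 in WENRC. Both RANKL libraries lay below all 4 others, and ENRI and WENRC overlapped. Elf3 fell in RANKL by 0.95 against ENRI (SE 0.17, limma adjusted p 0.0149) and by 0.79 against WENRC (SE 0.17, limma adjusted p 0.0336), and WENRC differed from ENRI by -0.16 (SE 0.17, limma adjusted p 0.573). The falls kept their sign without each library in turn, from -1.09 to -0.80 against ENRI and from -0.93 to -0.65 against WENRC. They were not past the threshold without RANKL 1 (limma adjusted p 0.143 and 0.265) or RANKL 2 (0.103 and 0.175), and the fall against WENRC was not without WENRC 1 (0.147) or WENRC 2 (0.182). Of the epithelial genes, keratin 8 (Krt8) was also lower in RANKL, by -1.66 against ENRI and -0.92 against WENRC (limma adjusted p 0.00286 and 0.0147), while Epcam changed by -0.05 and 0.44 (limma adjusted p 0.832 and 0.122). The part of these markers in the Elf3 difference was not tested.

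Spib and Elf3, the 2 genes that changed in opposite directions, are shown with the 250 bases before their RefSeq start sites, as RefSeq gives them on GRCm38.p6, a build other than the mm9 of the files. Of the 7 genes, 4 (Spib, Spic, Elf3 and Ets2) were in the RefSeq promoter table. Capitals mark matches on either strand to the Ets core GGAA (TTCC where the match is on the other strand) and to the kappa B consensus bound by NF-kB. The Spib stretch lies at chr7:44532072-44532321 (minus strand) and the Elf3 stretch at chr1:135258473-135258722 (minus strand), both written along the gene.
Spib: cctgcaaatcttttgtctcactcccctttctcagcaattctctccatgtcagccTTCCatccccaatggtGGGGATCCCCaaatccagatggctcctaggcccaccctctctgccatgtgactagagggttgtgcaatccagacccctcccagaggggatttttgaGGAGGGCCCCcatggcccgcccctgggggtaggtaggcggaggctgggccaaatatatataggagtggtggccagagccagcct
Elf3: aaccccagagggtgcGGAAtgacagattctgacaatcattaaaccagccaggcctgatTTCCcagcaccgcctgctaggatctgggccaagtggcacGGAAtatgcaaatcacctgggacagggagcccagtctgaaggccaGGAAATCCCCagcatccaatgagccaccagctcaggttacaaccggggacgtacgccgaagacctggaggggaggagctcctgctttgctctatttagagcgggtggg

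The Spib stretch held 1 match to the Ets core, from -196 to -193 counted from the start site. It matched the kappa B consensus at 2 places, -180 to -171, where GGGGATCCCC reads the same on both strands, and -84 to -75 on the opposite strand. The Elf3 stretch held 4 Ets core matches and 1 kappa B match, GGGGATTTCC on the opposite strand from -108 to -99, and its first bases as printed are also one of the Ets core matches. Over all 32851 promoters of the table, 93.4% held an Ets core (median 3 matches in 250 bases), 7.25% a kappa B match and 2.44% the purine-rich box GAGGAAGT, which contains a GGAA core and was found in neither stretch. Of the printed bases, 58.0% in Spib and 57.2% in Elf3 were G or C, against a median of 52.4% over all promoters. These are matches of letters and no measure of binding.

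The next genes on either side of Spib run on the same strand and were also higher in RANKL. Mybpc2, a myosin-binding protein gene of muscle, starts 1325 bp past the end of Spib. Its levels were 7.71 and 7.44 in RANKL, 5.06 and 5.21 in ENRI, and 5.04 and 5.04 in WENRC. It rose by 2.44 over ENRI and 2.53 over WENRC (limma adjusted p 0.00221 and 0.00218). Pold1, a DNA polymerase subunit gene, ends 672 bp before the start of Spib. Its levels were 8.39 and 8.42 in RANKL, 7.01 and 6.96 in ENRI, and 7.93 and 7.88 in WENRC. Pold1 rose by 1.42 over ENRI (limma adjusted p 0.00370), and its change of 0.50 over WENRC did not pass (limma adjusted p 0.0789). The order of the 2 low cultures differed between neighbours: Pold1 was higher in WENRC than in ENRI in both mice (0.92 and 0.92), whereas Mybpc2 had differences of -0.02 and -0.17. Whether polymerase passing from one of these genes into the next moves with these levels was not tested.

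By closeness of profile, measured as the root mean square difference of values centred on each gene's mean over the 6 libraries, the 5 tested genes nearest to Spib were Ccdc108 (0.25), Cspg4 (0.26), Tnfaip2 (0.30), Nfatc4 (0.30) and Sox8 (0.32). Ccdc108 had levels of 8.94 and 9.15 in RANKL against 3.91 to 4.73 in the 4 other libraries. Cspg4, a cell surface proteoglycan gene, had 8.20 and 8.37 against 4.25 to 4.57, and Nfatc4, of the calcium-dependent NFAT factors, had 6.71 and 6.82 against 2.65 to 3.26. Tnfaip2 and Sox8 are known M cell genes and stood in the M cell list. All 5 shared with Spib the step between RANKL and the rest, and the measure was taken on the same 6 libraries.

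**Figure D2:**
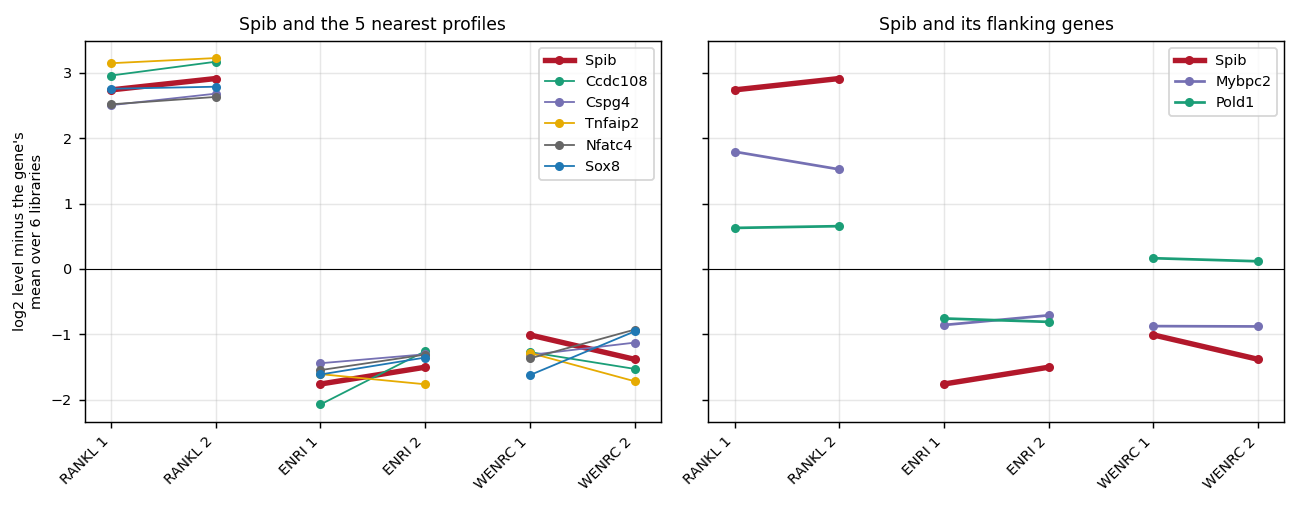
Log2 level minus the gene's own mean over the 6 libraries, for Spib with the 5 genes of nearest profile (left) and with the genes that flank it (right). Each point is a library and a line joins the 2 libraries of a culture; Mybpc2 and Pold1 are high in RANKL with Spib but by less, 2.44 and 1.42 over ENRI against 4.45.

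The closest relatives of Spi-B were near the bottom of the scale in every culture. Spi1 (chromosome 2, 90936835 to 90955916, plus strand) had 3.09 and 2.90 in RANKL, 3.05 and 3.25 in ENRI, and 3.08 and 3.15 in WENRC, all under the filter of log2 of 10. Spic (chromosome 10, 88138015 to 88145768, minus strand) had 0.72 and 0.78 in RANKL, 0.72 and 0.97 in ENRI, and 0.72 and 0.77 in WENRC. Neither passed the filter. In a fit with no filter, limma adjusted p-values were 0.589 to 0.919 for Spi1 and 0.544 to 0.972 for Spic over the 3 comparisons, and levels this low do not show that the genes are silent. In the authors' deposited table, adjusted p-values of both genes were between 0.775 and 1.

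Markers of blood cells, where Spib, Spi1 and Spic are also used, were given beside these values. Of 12 listed blood cell genes, 8 were tested. Limma called 0 of them in RANKL against ENRI and 0 against WENRC, with 1 in each at an unadjusted p under 0.05, and the authors' deposited table called 0 and 1. Summed over the 12 genes on the linear scale, the level was 473 to 563 in RANKL, 468 to 490 in ENRI and 591 to 667 in WENRC. These sums rest mostly on Cd68 and Csf1r, the highest of the 12 genes in every library. Cd68 had 8.38 and 8.52 in WENRC against 7.51 to 7.91 elsewhere. The pan-leukocyte gene Ptprc had 3.54 and 3.31 in RANKL against 3.07 to 4.68 elsewhere. The part of these cells in the values of Spib, Spi1 and Spic was not tested, and fewer cells of a type and less RNA per cell cannot be told apart in such bulk libraries. Of 6 endothelial and stromal genes 1 was tested, Pecam1, with differences of 0.67 and 0.57 in RANKL that did not pass (limma adjusted p 0.0732 and 0.140).

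Ehf, an epithelial Ets factor, differed most between the 2 ENRI libraries. Its gene lies on chromosome 2 (NM_007914, 103103590 to 103143353, minus strand). Levels were 10.02 and 10.25 in RANKL, 10.97 and 8.87 in ENRI, and 10.95 and 10.96 in WENRC. ENRI 1 matched the WENRC libraries, and ENRI 2 was the lowest of the 6. The gap of 2.10 between the ENRI libraries was reached by 1.93% of tested genes. RANKL lay below WENRC without overlap, with a change of -0.82 (SE 0.62, limma adjusted p 0.435), and the change against ENRI was 0.21 (SE 0.62, limma adjusted p 0.835).

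The SD of Ehf was 1.49 in ENRI, against 0.16 in RANKL and 0.01 in WENRC, and the fit shares one spread. With only the RANKL and WENRC libraries in the fit, the same change of -0.82 had a limma adjusted p of 0.00220, and in the authors' deposited table it was -0.95 with an adjusted p of 2.53e-08. That smaller fit called all 5 tested members, Spib and Ets1 higher and Ehf, Elf3 and Ets2 lower, but it also called 31.4% of all tested genes, against 11.6% for RANKL and ENRI alone and 0% for WENRC and ENRI alone. Against ENRI, the change of Ehf depended on the library: it was 1.26 without ENRI 1 (limma adjusted p 0.000715, 42.1% of all genes called) and -0.84 without ENRI 2 (limma adjusted p 0.00608, 26.8% of all genes called). In these fits the ENRI arm is 1 library and the spread comes from RANKL and WENRC alone, so that the adjusted p-values leave out the ENRI spread of 1.49. Within mouse 1, WENRC minus ENRI was -0.02, and within mouse 2 it was 2.09.

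Ets1 had the same split. Its gene lies on chromosome 9 (NM_011808, 32503627 to 32565405, plus strand). Levels were 7.21 and 7.13 in RANKL, 7.51 and 5.74 in ENRI, and 6.46 and 6.60 in WENRC. Both RANKL libraries lay above both WENRC libraries, and the ENRI libraries lay above and below all the others. The gap of 1.76 between the ENRI libraries was reached by 3.13% of tested genes. The change in RANKL was 0.55 against ENRI (SE 0.54, limma adjusted p 0.510) and 0.64 against WENRC (SE 0.54, limma adjusted p 0.485; 0.0230 with only the RANKL and WENRC libraries in the fit). In the authors' deposited table the latter was 0.93 with an adjusted p of 0.0652. WENRC minus ENRI was -1.05 in mouse 1 and 0.86 in mouse 2, and Ets1 was called with opposite signs without ENRI 1 (0.79, limma adjusted p 0.0202, 40.1% of all genes called) and without ENRI 2 (-0.97, limma adjusted p 0.0146, 18.8% of all genes called). Here too 1 ENRI library is set against a spread from RANKL and WENRC (SD 0.06 and 0.10), which leaves out that of ENRI (1.25).

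The 2 ENRI libraries also differed in cell type markers. The summed linear level of the 7 enterocyte genes was 42211 in ENRI 1 and 70902 in ENRI 2, and that of the 12 M cell genes was 3254 and 1470. The M cell sum rests on its abundant genes: 8 of the 12 were lower in ENRI 2, such as Anxa5 (9.09 to 6.13) and Tnfrsf11b (9.10 to 5.91), and 4 were higher there, such as Gp2 (2.56 to 3.72). The part of these differences in the values of Ehf and Ets1 was not tested, and mouse and library cannot be told apart. Spib, Elf3 and Ets2 differed between the ENRI libraries by 0.26, 0.27 and 0.26, sizes reached by 59.7%, 57.9% and 59.1% of tested genes. The 2 nearest profiles to Ets1 were Srgap1 (0.06) and Gm10371 (0.10), and to Ehf Npcd (0.09) and Dyrk3 (0.14). All 4 had their lowest value in ENRI 2, as Ehf and Ets1 did. They were picked by likeness over the same 6 libraries, so this shared low value follows from the choice.

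Ets2, a target of MAP kinase signalling, varied least of the 5 tested genes. Its gene lies on chromosome 16 (NM_011809, 95924014 to 95942656, plus strand). Levels were 10.69 and 10.58 in RANKL, 10.74 and 11.00 in ENRI, and 10.91 and 11.15 in WENRC. RANKL lay just below the other cultures without overlap. The changes were -0.24 against ENRI (SE 0.16, limma adjusted p 0.344) and -0.39 against WENRC (SE 0.16, limma adjusted p 0.171). The latter had a limma adjusted p of 0.0455 with only the 4 libraries compared, and the authors' deposited table gave -0.47 with an adjusted p of 0.0170. WENRC minus ENRI was 0.17 in mouse 1 and 0.15 in mouse 2.

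Levels of different genes can be set side by side only per length, here as the log2 level per kb of gene. Among the 26 listed Ets genes, Elf3 had the highest level per kb in both ENRI and both WENRC libraries, 7.85 to 8.17, with Ets2 second at 6.52 to 6.93. In RANKL, Spib (7.02 and 7.19) and Elf3 (6.95 and 7.23) overlapped as the 2 highest, followed by Ets2 (6.46 and 6.36). Spib ranked 13 to 16 in the other 4 libraries, at 2.52 to 3.27. Ehf lay at 5.66 and 3.56 in ENRI, at 4.71 and 4.94 in RANKL, and at 5.64 and 5.65 in WENRC. Ets1 ranked 18 to 20 in every library, at -0.21 to 1.56, and Spi1 and Spic lay below it at -2.24 to -1.01.

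Of the 19 other Ets genes, 17 were tested. Of the 17, 3 rose and 1 fell in RANKL against ENRI (median change 0.13), beside 20.9% of all tested genes called. RANKL against WENRC had 3 higher and 1 lower (median 0.19), beside 12.1%. WENRC against ENRI had 1 higher and 2 lower (median -0.09), beside 14.6%. Recentring on upper quartiles left 1 higher and 1 lower against WENRC, and it moved the medians of all genes by over 0.1, from -0.01 to -0.12 in RANKL against WENRC and from -0.01 to 0.10 in WENRC against ENRI. The called gene with the largest change was Etv5, an FGF and MAP kinase target, with levels of 7.55 and 7.31 in RANKL, 7.88 and 7.75 in ENRI, and 8.86 and 8.91 in WENRC. Etv5 was highest in the stem cell culture, by 1.46 over RANKL and 1.07 over ENRI (limma adjusted p 0.00606 and 0.0148). Etv6, a repressor of the family, had 13.43 and 13.48 in RANKL against 12.34 and 11.84 in ENRI, a rise of 1.36 (SE 0.22, limma adjusted p 0.0117). Etv3, another repressor, was highest in ENRI (9.93 and 10.20), with 9.02 and 9.07 in RANKL and 8.98 and 9.00 in WENRC. It changed by -1.02 in RANKL and -1.08 in WENRC against ENRI (limma adjusted p 0.00848 and 0.0127). Elf5 rose in RANKL over WENRC by 1.36 (limma adjusted p 0.0445), and Elf4 was lower in WENRC than in ENRI by -0.97 (limma adjusted p 0.0254). The remaining called genes were Elf1, Elf2 and Spdef, all higher in RANKL in at least 1 comparison. None of these changes came near that of Spib, and the difference between genes was not tested.

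**Figure D3:**
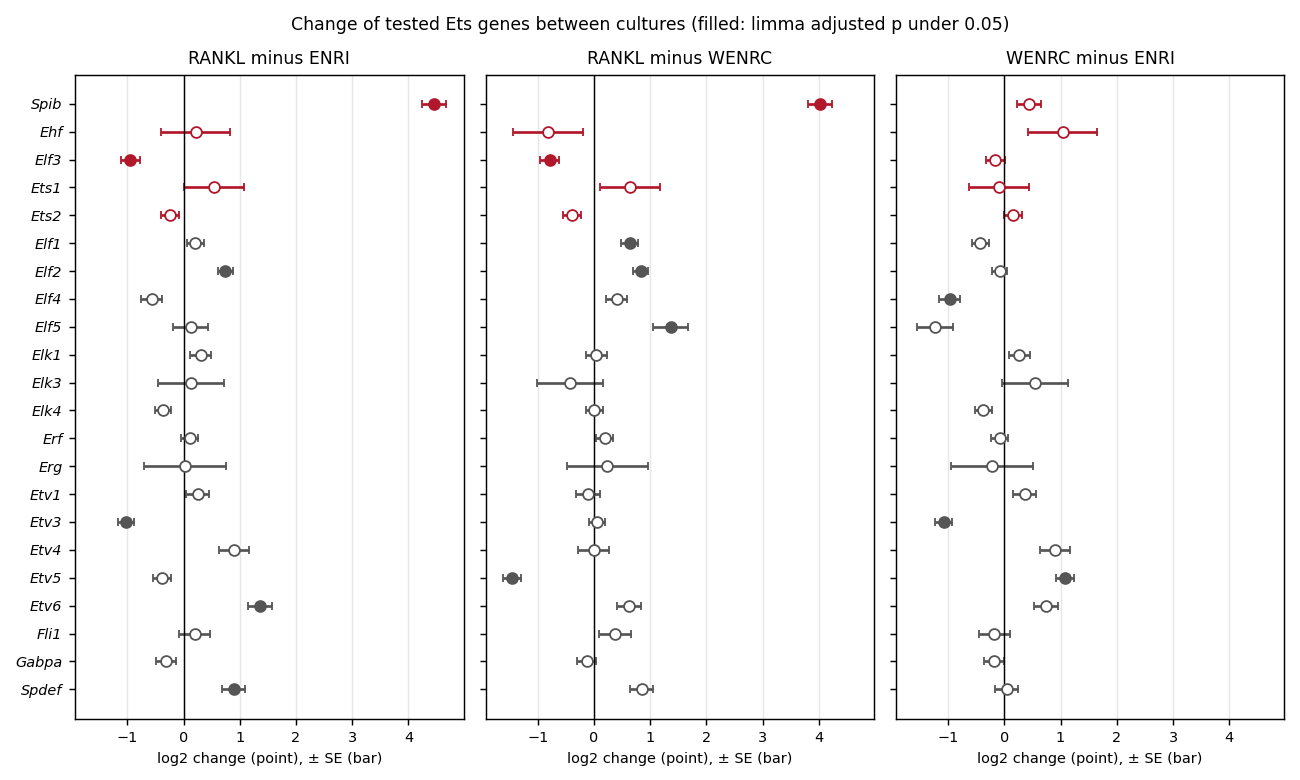
Log2 change of the 22 tested Ets genes in each comparison, with bars of 1 SE from limma. The 5 genes described in detail are red and the others grey, and filled points have a limma adjusted p under 0.05; Spib lies at 4.45 and 4.02 in the RANKL comparisons, beyond all other points, which lie between -1.46 and 1.36.

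Some of the members sit beside an Ets paralogue. Ets1 and Fli1 are neighbours on chromosome 9, 154.6 kb apart on opposite strands, and Ets2 and Erg on chromosome 16, 115.8 kb apart on opposite strands, both with no listed gene between them. Ehf and Elf5 lie 108.9 kb apart on chromosome 2 with 2 listed genes between. The partners differed in level: Fli1 had 3.01 to 3.73 and Erg 4.07 to 5.89 over the 6 libraries, with no call in any comparison by limma (unadjusted p above 0.05 for both in each). Between RANKL and WENRC, Elf5 had a change of 1.36 and Ehf one of -0.82, of which limma called the former. Elsewhere beside the members, Rnpep, on the same strand and ending 4226 bp before the start of Elf3, was lower in RANKL by -0.81 against ENRI and -0.83 against WENRC (limma adjusted p 0.0185 and 0.0234). No listed gene overlapped any of the 7 members.

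The proteins that act with Spi-B and PU.1, and the pathway that leads to Spib, were read from fixed lists. Of 7 partner genes 6 were tested. Tcf3, which encodes the E2A proteins, was higher in RANKL than in ENRI by 0.60, and Cebpa was lower by -1.26 (limma adjusted p 0.0303 and 0.0419), while limma called 0 against WENRC (3 at an unadjusted p under 0.05, 4 in the authors' deposited table). The list's medians were -0.69 and -0.85. Of 9 genes between RANK and NF-kB, 6 were higher and 0 lower in RANKL than in ENRI (median 0.95), and 7 were higher and 0 lower than in WENRC (median 1.27), beside 10.4% and 8.53% of all tested genes called higher. Against ENRI, 3 of the 9 were higher with only the 4 libraries compared and the replicate number as a block. Fewer were called in both comparisons without RANKL 1 or RANKL 2, and against WENRC without WENRC 1 or WENRC 2. The share of all tested genes called in these fits is not given, so the drops cannot be read as particular to this list. The median stayed between 0.84 and 1.32 in these comparisons without each library in turn. Tnfrsf11a, the gene of the receptor RANK itself, rose by 2.82 over ENRI and 2.15 over WENRC. Relb, the NF-kB subunit of the non-canonical branch, had 11.44 and 11.50 in RANKL, 10.03 and 10.02 in ENRI, and 8.78 and 9.12 in WENRC. It rose by 1.45 over ENRI and 2.52 over WENRC (limma adjusted p 0.00418 and 0.00146). Nfkb2, its partner subunit, rose by 1.65 and 2.35 (limma adjusted p 0.00347 and 0.00181). Both had higher values in ENRI than in WENRC, by 1.08 and 0.70 (limma adjusted p 0.0143 and 0.0425).

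H3K27me3 around the members was read from the authors' tables of regions at least 2-fold higher in one culture than in the other. With pooled RANKL and 1 WENRC library there is no replicate check, folds are the authors', and intervals below are 95% exact binomial intervals on the tags that cover counting error only. Regions that do not differ are not in these tables, so a gene without one may or may not carry the mark. Of the 7 members, 1 (Ets1) was the nearest gene of a RANKL-higher region and 2 (Ets1 and Spic) of a WENRC-higher region, against 33.7% and 24.0% of all listed genes. Spib, Spi1, Ehf, Elf3 and Ets2 were the nearest gene of none. Of the 19 other Ets genes, 10 had a RANKL-higher and 6 a WENRC-higher region.

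Ets1 carried 12 of the 13 regions, of which 8 favoured RANKL and 4 favoured WENRC. Regions of both kinds were annotated to 15.0% of all listed genes, and 12 or more regions of either kind to 3.54%. The largest by tags lay in the first intron, 681 bp from the start (chromosome 9, 32503791 to 32504826), with 71 RANKL tags against 31.5 scaled WENRC tags, a fold of 2.25 (interval 1.48 to 3.48). A region at -1987 bp from the start (32501390 to 32501890) had 23 against 8.1 tags, a fold of 2.84 (interval 1.27 to 6.97). Further upstream, at -4160 bp (32499217 to 32499717), the balance turned, with 10 RANKL tags against 31.5, a WENRC-higher fold of 3.15 (interval 1.53 to 7.13). Past the end of the gene, a WENRC-higher region (32570456 to 32570956; 8 against 21.6 tags) was followed after 176 bp by a RANKL-higher one (32571133 to 32571633; 19 against 4.5 tags). The largest folds were 4.22 in RANKL, at the latter, and 5.70 in WENRC, at a region 72.8 kb from the start with 3 against 17.1 tags. Over all 8 RANKL-higher regions, which cover 5034 bp, RANKL had 287 tags and WENRC 111.6, and over the 4 WENRC-higher regions, which cover 2000 bp, 35 and 101.7. These regions were listed because they differ, so the folds are a description, and no direction of the mark over Ets1 as a whole follows from the counts.

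The single region of Spic lay upstream, at -9071 bp from its start (chromosome 10, 88154589 to 88155089), with 7 RANKL tags against 20.7 in WENRC, a WENRC-higher fold of 2.96 (interval 1.23 to 8.16). Near Spib, the closest differing region was WENRC-higher and lay 2383 bp past the end of the gene, in the first intron of Mybpc2 (chromosome 7, 51778207 to 51778981). It had 10 RANKL tags against 31.5, a fold of 3.15 (interval 1.53 to 7.13). A second WENRC-higher region lay in exon 9 of Mybpc2 (51771586 to 51772086), with 6 against 20.7 tags and a fold of 3.45 (interval 1.37 to 10.4). The closest RANKL-higher region was 25.3 kb from Spib, and within 50 kb of the gene there were 6 RANKL-higher and 2 WENRC-higher regions. The 2 WENRC-higher regions thus lie in the flanking gene that was, like Spib, higher in RANKL by GRO-seq. For Ehf, Elf3 and Ets2 the nearest differing region of either kind was 72.1, 66.4 and 113.9 kb away, and for Spi1 it was 6.2 kb away.

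**Figure D4:**
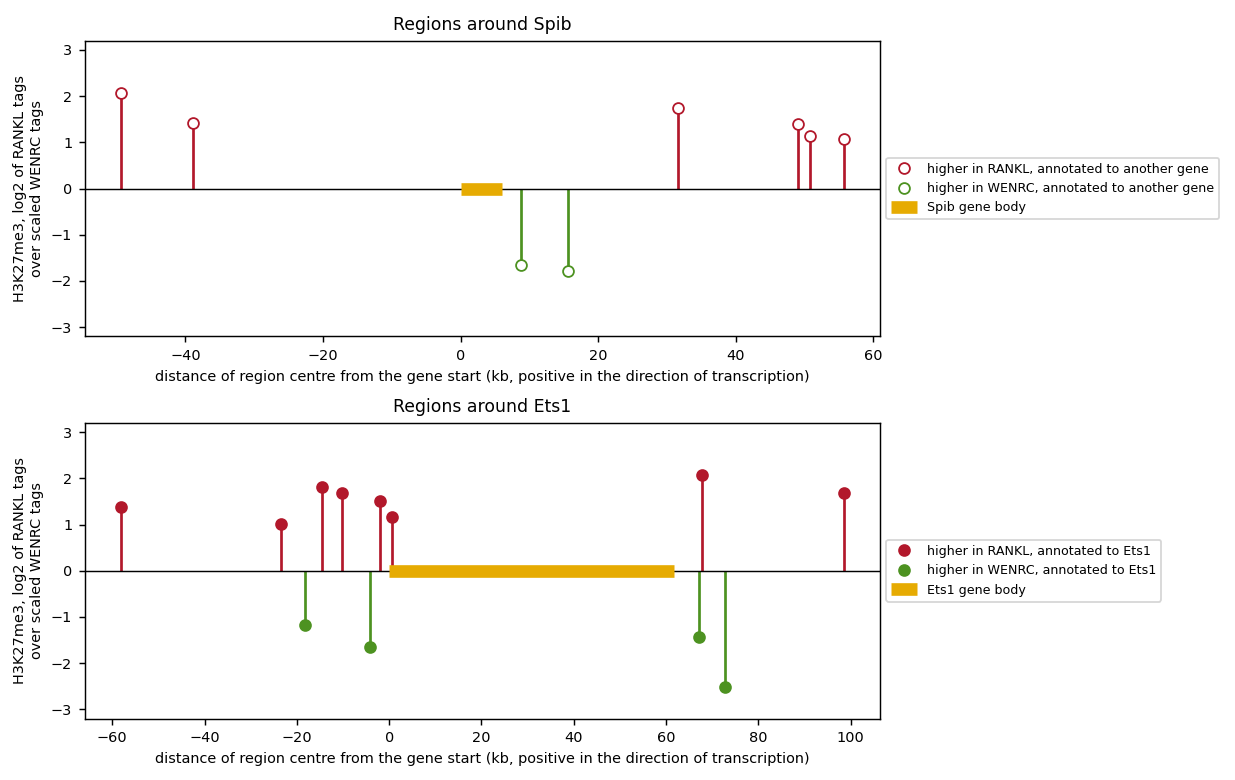
Differing H3K27me3 regions around Spib and Ets1, by distance of the region's centre from the gene start (kb, positive in the direction of transcription) and log2 of RANKL tags over scaled WENRC tags. Filled points are annotated to the gene itself and open points to another gene, and the yellow bar is the gene body; the 2 regions next to Spib are WENRC-higher, and at Ets1 the 8 RANKL-higher and 4 WENRC-higher regions are interspersed.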

How the data were processed

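GRO-seq (6 libraries, 3 cultures) and H3K27me3 ChIP-seq (2 RANKL libraries and 1 WENRC library) were analysed from the deposited tables. Bowtie2 2.3.4.1, HOMER, DESeq2 and mm9 are named per the submitters' processing notes. Per the file headers, the authors summed raw reads over whole RefSeq genes with HOMER's analyzeRepeats.pl and compared cultures with getDiffExpression.pl. The deposited GRO-seq values are log2 values, and how strand was handled is not given in the sources used here. Deposited log2 fold changes and adjusted p-values of the authors were turned to first minus second culture.

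Limma 3.58.1 (R 4.3.3, variance trend, two-sided) was run on the log2 values, with no pseudocount, in 1 fit of 3 group means. Genes with at least 2 libraries at log2 of 10 or more were tested, 16563 of 24505 (2131 were at 0 throughout). P-values were adjusted by Benjamini-Hochberg over all tested genes, with a threshold of 0.05. The fit was tested on simulated data in which each gene had the same spread in all cultures. That test does not cover spreads that differ between cultures, as those of Ehf and Ets1 do. ENRI and WENRC libraries of one number come from one mouse, and their deviations correlated across genes (r 0.414). For RANKL numbers, r was -0.205 with ENRI and -0.323 with WENRC. With 2 libraries per culture, the sign of r turns with the numbering and its size stays the same. The size of r therefore cannot show whether any of these libraries pair, and RANKL numbers are not mouse numbers.

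Per the file headers, H3K27me3 regions were called by the authors with HOMER, one culture against the other as control. Deposited RANKL tags are whole counts in the regions higher in RANKL; WENRC tags were scaled by the authors by 0.9 and are a signal, as are RANKL tags in the other table. The deposited fold is the ratio of both.

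Members and lists were chosen with earlier results of these data known. Named besides the members are the 5 most changed other Ets genes, up to 3 genes per list by smallest p in RANKL against ENRI, nearest profiles and flanking genes. Epcam, Ptprc, Csf1r, Apoa1, Apoa4, Anxa5, Tnfrsf11b, Gp2, Elf1, Elf2 and Spdef were named after their values were seen. Promoters were searched over the 250 bases before the start site, without the 50 transcribed bases first planned, and proteins were not analysed here. For members and lists alike, alternatives were the filter, scaling, variance trend, replicate block, only the libraries compared, and leaving out each library.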

Additional observations from a re-analysis of the deposited data

How the results depend on the processing

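The counts of members called depended most on which libraries were in the fit. Against WENRC, 2 members were called by the fit of all 6 libraries, 5 with only the 4 libraries compared, 4 with those libraries and the replicate number as a block (an alternative chosen after seeing the data), and 4 in the authors' deposited table. Leaving out each library in turn also moved the count of members called in each comparison. Without an ENRI library, the share of all tested genes called against ENRI rose as well. For the other libraries left out that share is not given, so these moves are no result about the members. Spib ranged from 3.83 to 4.21 over WENRC, losing the threshold without either RANKL library, and from 4.33 to 4.58 over ENRI, where it stayed past it. Single members changed sign on leaving out 1 library: Ehf ran from -0.84 to 1.26 in RANKL against ENRI and from -0.017 to 2.09 in WENRC against ENRI, and Ets1 from -0.34 to 1.43 and from -0.97 to 0.79. Other sign changes were of differences that had not passed: Ehf in RANKL against ENRI was -0.20 in the authors' table, Elf3 in WENRC against ENRI was 0.086 with quantile normalization, and Ets1 there was 0.021 with recentring on upper quartiles. A block for the replicate number in the fit of all 6 libraries left every member's call as it was (Spib over ENRI 4.45, limma adjusted p 0.00237). This block also ties RANKL 1 and RANKL 2 to the mouse numbers, which the labels do not do. With only the ENRI and WENRC libraries and the block, which follows the mice, limma called 0 members. Filters, scaling and the variance trend changed no member's call. Counts over all genes moved from 3464 to 1925 (RANKL against ENRI), 2012 to 5194 (RANKL against WENRC) and 2416 to 0 (WENRC against ENRI; where limma called 0 genes, 4074 at an unadjusted p under 0.05, and 2076 were called in the authors' deposited table) with only the 4 libraries compared. Of the 8 RANKL-higher and 5 WENRC-higher regions, 1 and 1 had a fold of at least 4, and 2 and 1 lay within 5 kb of a start site. Taken by position and not by nearest gene, 2 RANKL-higher and 2 WENRC-higher regions overlapped a member's span extended by 5 kb. Of these 2 WENRC-higher regions, 1 was the region near Spib annotated to Mybpc2, which is not among the 5. GRO-seq depth is unknown, so that Spi1 and Spic cannot be told from background.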
